A study of Homo sapiens with 6 samples.

Results

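The genes described here are 42 autophagy genes, chosen by symbol from the machinery that builds the autophagosome, its cargo receptors and the transcription factors of the pathway. All 42 had a row among the 27470 genes of the deposited count table, and 41 of them passed edgeR's filter on low counts and were tested. The cells were 22Rv1-ABHD5, a line made from the human castration-resistant prostate cancer line 22Rv1 by infection with a lentivirus that carries ABHD5 under a doxycycline (Dox)-inducible promoter, with selection in G418. Every library therefore came from cells that hold the transgene. The labels name 3 libraries Control and 3 libraries OE, for overexpression of ABHD5, and these are called without Dox and with Dox below. Both were cultured for 48 h. ABHD5 is the coactivator of the triglyceride lipase ATGL. Libraries of 22Rv1 cells without the transgene were not analysed here, so Dox and ABHD5 cannot be told apart. The labels do not say whether the libraries of a condition came from separate cultures, and p-values measure only the spread between these libraries.

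Autophagy encloses cytoplasm in a double membrane, the autophagosome, and delivers it to the lysosome. The ULK1 kinase complex starts the process and is held back by the nutrient sensor mTORC1 and activated by the energy sensor AMPK. The class III phosphatidylinositol 3-kinase (PI3K) complex then marks the growing membrane with the lipid PI3P, lipid transfer proteins enlarge it, and a pair of ubiquitin-like conjugation systems attaches small proteins of the ATG8 family to it. Cargo receptors bind both the cargo and ATG8 proteins. The factors TFEB, TFE3 and MITF (the MiT/TFE family) drive transcription of autophagy and lysosome genes.

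The libraries held 3394672 to 7271771 counts on genes. ABHD5, read first because its promoter is the target of Dox, had 63.5, 58.0 and 62.8 CPM (counts scaled to the size of the library with TMM normalization) in replicates 1, 2 and 3 without Dox and 125.9, 130.8 and 91.7 CPM with Dox. The conditions did not overlap, and its log2 fold change was 0.91 (standard error, SE, 0.15, edgeR quasi-likelihood adjusted p = 1.978e-04). Reads came from the 3ʹ ends of polyadenylated transcripts, and where the transcript of the transgene ends is not given in the sources used here. Of 8 markers of prostate luminal epithelium, 8 were tested and 5 were lower with Dox, and their summed level was 1518 to 1631 CPM without Dox and 962 to 1063 CPM with Dox. Markers of other cell types were near 0, with at most 4 counts summed over 3 leukocyte genes, 58 over 3 fibroblast genes and 0 over 2 endothelial genes in any library, although the fibroblast gene COL1A1 was itself higher with Dox (log2 fold change 1.22). In bulk RNA, fewer cells of a type and less RNA per cell cannot be told apart. Reads on no gene were 32.5% to 34.6% of those listed without Dox and 35.6% to 39.5% with Dox. The part that these differences play in the results on autophagy genes was not tested.

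Among the 41 tested autophagy genes, 7 were higher and 1 was lower with Dox at an adjusted p under 0.05. The genes that rose were GABARAPL1, MAP1LC3B, MAP1LC3A, ATG2A, ATG14, RB1CC1 and NBR1, and the gene that fell was ATG101. As a background, 25.5% of all 12233 genes tested passed the same threshold, 11.9% as higher and 13.7% as lower with Dox. The members called were 19.5% of those tested, 17.1% as higher and 2.44% as lower. The share of members called in either direction was thus below that of all genes. The members were chosen with earlier results of these data known, so the shares are a description and were not tested. With library totals alone in place of TMM normalization, 10 members were higher and 1 was lower, and over all genes the split moved from 1451 higher and 1674 lower to 2179 higher and 1136 lower.

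The changes were small. Of the 8 members that passed, 0 had an estimate of 2-fold or more with all 6 libraries, and the log2 fold changes of the 41 members ran from -0.56 to 0.83. The 95% intervals of GABARAPL1, ATG14 and MAP1LC3A nevertheless reached past 2-fold, to log2 values of 1.18, 1.21 and 1.22. Their median was 0.13, against 0.02 over all genes tested, and the median size without regard to sign was 0.23 against 0.30. Without replicate 3 with Dox, the members' median was 0.048. For 31 of the 33 members that did not pass, the 95% interval of the log2 fold change lay wholly within a 2-fold change in either direction, so that larger differences were outside the interval. The libraries of the conditions did not overlap for 15 members, 11 higher and 4 lower with Dox. Over all genes, 39.5% did not overlap, 19.0% as higher and 20.5% as lower. Counts of all 42 genes summed to 3792, 3851 and 3789 CPM without Dox and to 4138, 4313 and 4066 CPM with Dox, a ratio of means of 1.09. The sum is weighted to abundant genes and was not tested. TAX1BP1, which did not pass, alone had a mean of 477 CPM without Dox and 612 CPM with Dox.

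**Figure D1:**
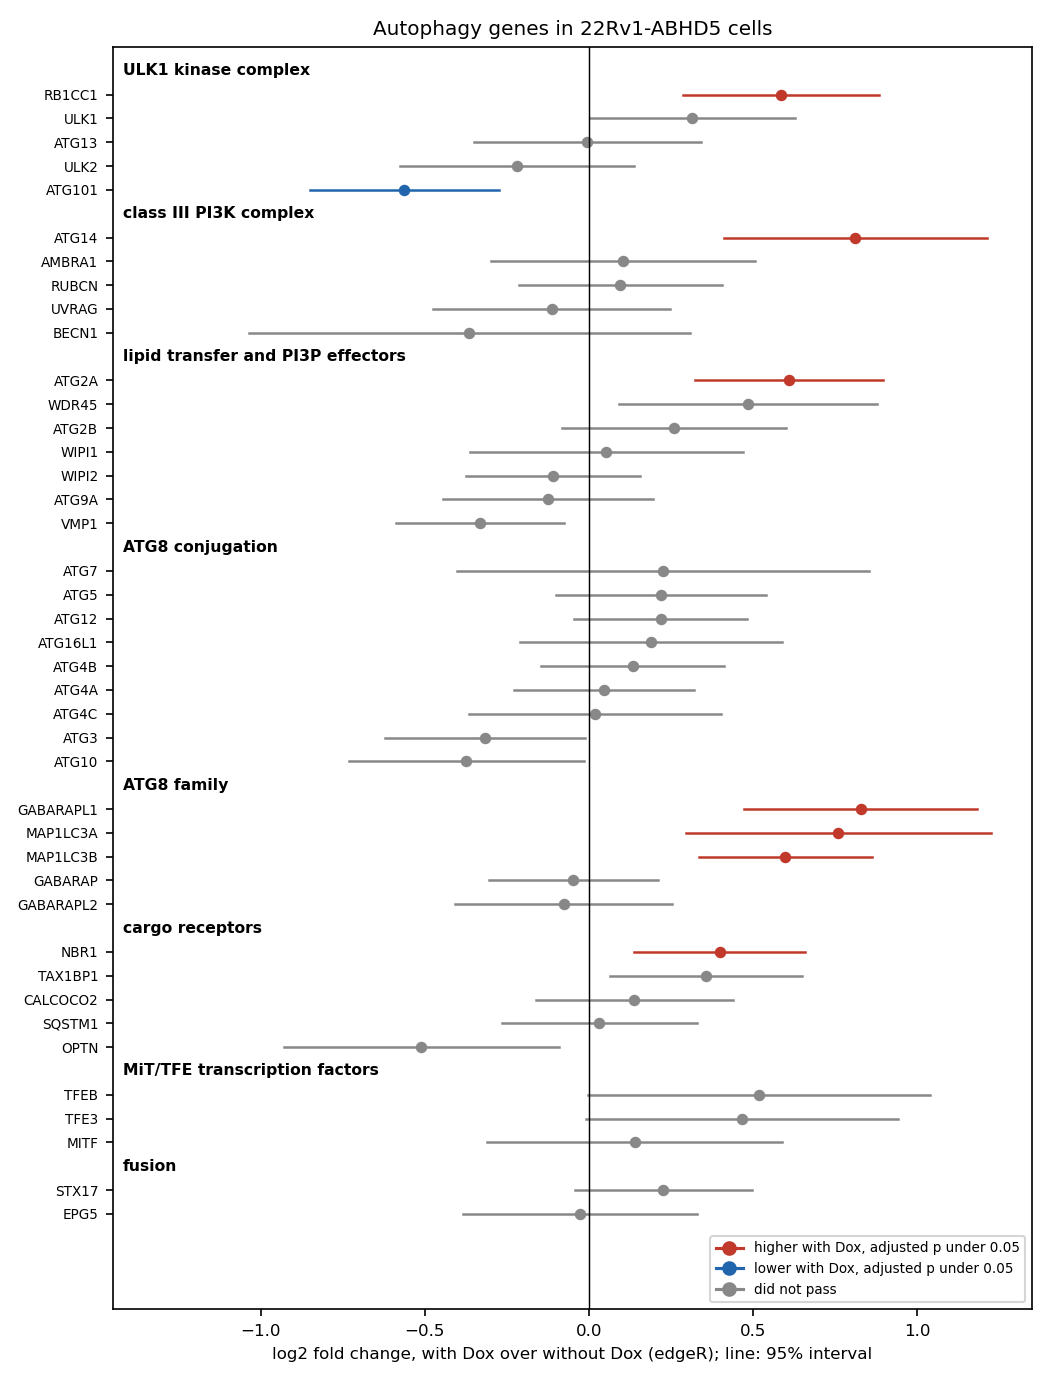
Log2 fold change with Dox over without Dox (horizontal axis, edgeR's fit) of the 41 tested autophagy genes, grouped by role; points are estimates from 3 libraries per condition and lines are 95% intervals. Red points passed an adjusted p of 0.05 as higher, the blue point (ATG101) as lower and grey points did not pass; the intervals of the 7 red genes begin between 0.14 and 0.47.

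The sequences before the start sites of members that moved are shown to let the letters of known regulatory motifs be read beside the values. RefSeq windows of 300 bases, from 250 before to 50 after a start, were found for 36 of the 42 members, some with several starts, which gave 50 windows. They were searched on both strands for CACGTG (the E-box core), TCACGTG and TCATGTG (forms bound by MiT/TFE factors) and GTAAACA (a forkhead form), and for the longer CLEAR motif, which is TCACGTG with a G before it and AC after it. CACGTG is part of TCACGTG, and both are part of the CLEAR motif. CACGTG was present in 2 of the 50 member windows, those of ATG14 and ATG3, against 7.26% of all 35116 windows and 9.46% of the 13680 windows of genes tested. TCACGTG was in the same 2 windows, against 3.71% of all and 5.53% of those of genes tested, so that the members' 4.0% lay between these shares. TCATGTG was in windows of ATG101 and WIPI2, against 2.92% of all and 1.84% of those of genes tested, and GTAAACA in windows of CALCOCO2 and WDR45, against 3.42% and 2.54%. The CLEAR motif was in 0 of the 50, against 0.353% of all and 0.68% of those of genes tested. Of the 7 windows of members that passed, CACGTG and TCACGTG were in 1 (ATG14) and TCATGTG in 1 (ATG101). A match is a description of letters and not a site of binding. Of the members that passed, those with a single window and enough bases outside GENCODE exons are shown. RB1CC1 was left out whatever its stretch. Below, for 3 members that rose with Dox, are the bases before the RefSeq start that no GENCODE exon overlaps, 5ʹ to 3ʹ on the gene's strand (build GRCh38.p14), with matches to these motifs in capitals. The stretch of ATG14 is chr14:55411831-55412080 on the minus strand, that of ATG2A is chr11:64917210-64917459 on the minus strand and that of GABARAPL1 is chr12:10212754-10212835 on the plus strand. The GABARAPL1 stretch holds 82 bases, from 123 to 42 before the RefSeq start, and lies inside the wider locus of GENCODE, where some transcripts start earlier; the other stretches run through all 250 bases up to the start.
ATG14: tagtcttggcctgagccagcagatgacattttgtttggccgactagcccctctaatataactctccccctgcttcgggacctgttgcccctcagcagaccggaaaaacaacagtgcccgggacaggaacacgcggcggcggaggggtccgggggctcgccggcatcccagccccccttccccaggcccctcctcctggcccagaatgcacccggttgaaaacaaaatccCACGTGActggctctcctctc
ATG2A: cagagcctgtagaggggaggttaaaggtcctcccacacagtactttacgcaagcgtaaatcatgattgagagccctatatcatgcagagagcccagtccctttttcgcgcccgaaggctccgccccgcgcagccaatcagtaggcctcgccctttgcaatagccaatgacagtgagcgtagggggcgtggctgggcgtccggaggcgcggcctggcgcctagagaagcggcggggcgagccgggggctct
GABARAPL1: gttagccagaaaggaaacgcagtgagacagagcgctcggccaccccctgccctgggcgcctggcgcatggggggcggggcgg
The stretch of ATG14 holds a match, a CACGTGA that begins 21 bases before the start. Those of ATG2A and GABARAPL1 hold 0, the latter in a window of fewer bases.

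Of the 5 members of the ULK1 kinase complex, 1 rose, 1 fell and 3 did not pass. RB1CC1 encodes FIP200, the scaffold on which the complex assembles, and lies on chromosome 8 of hg38 from 52622458 to 52745843. It had 117, 130.2 and 155 CPM without Dox and 212, 224 and 169.7 CPM with Dox, with no overlap. Its log2 fold change was 0.59 (SE 0.14, edgeR quasi-likelihood adjusted p = 0.00555), and the call did not hold once replicate 1 without Dox was left out (0.48, edgeR adjusted p = 0.0569). ATG101, on chromosome 12 from 52069246 to 52077495, encodes the partner that stabilises ATG13 in the complex. It had 91.2, 77.8 and 91.1 CPM without Dox and 61.8, 51.2 and 62.8 CPM with Dox, so that every library with Dox was below every library without it. Its log2 fold change was -0.56 (SE 0.14, edgeR quasi-likelihood adjusted p = 0.00562). An unnamed noncoding gene on the opposite strand has an exon in the last 1 kb of ATG101, and whether reads were counted by strand is not stated.

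ULK1, the kinase of the complex, had 66.3, 52.7 and 51.8 CPM without Dox and 67.8, 62.6 and 80.8 CPM with Dox. Replicate 1 without Dox lay within the range with Dox, and the log2 fold change of 0.32 did not pass (95% interval 0.0018 to 0.63, edgeR quasi-likelihood adjusted p = 0.133). With library totals alone it passed, at 0.44 (edgeR adjusted p = 0.0389), and without replicate 3 with Dox it was 0.20 (edgeR adjusted p = 0.395). Its paralog ULK2 had a log2 fold change of -0.22 and ATG13, the regulatory subunit, -0.0044, and neither passed.

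In the class III PI3K complex, 1 of 5 members rose and 4 did not pass. ATG14, on chromosome 14 from 55366391 to 55411830, directs the complex to the site where autophagosomes form, and its upstream stretch is the one with the E-box core above. It had 19.3, 30.4 and 20.9 CPM without Dox and 40.0, 48.4 and 35.2 CPM with Dox. The lowest library with Dox was above the highest without, and the log2 fold change was 0.81 (SE 0.19, edgeR quasi-likelihood adjusted p = 0.00440). FBXO34, on the opposite strand, has an exon in the last 1 kb of ATG14; its own log2 fold change was -0.14 and did not pass (edgeR adjusted p = 0.602).

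BECN1 encodes Beclin 1, the scaffold of the complex. It had 23.0, 33.2 and 15.5 CPM without Dox and 25.7, 21.7 and 8.93 CPM with Dox. Replicates of a condition thus differed by more than the conditions did, and the log2 fold change of -0.36 had the widest 95% interval of the tested members, from -1.04 to 0.31 (edgeR quasi-likelihood adjusted p = 0.441). CNTD1, on the other strand, has an exon in the last 1 kb of BECN1. The remaining members were UVRAG, which replaces ATG14 in a second form of the complex, AMBRA1, a positive regulator, and RUBCN, an inhibitor; their log2 fold changes were -0.11, 0.10 and 0.10.

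Of 7 genes for lipid transfer and PI3P effectors, 1 rose and 6 did not pass. ATG2A, on chromosome 11 from 64894546 to 64917209, encodes a bridge-like protein that moves lipids from the endoplasmic reticulum to the growing membrane. It had 71.0, 86.5 and 64.9 CPM without Dox and 105, 118 and 114 CPM with Dox. The conditions stood clearly apart, with a log2 fold change of 0.61 (SE 0.14, edgeR quasi-likelihood adjusted p = 0.00310). Its paralog ATG2B had 38.4, 28.8 and 38.8 CPM without Dox and 41.5, 48.1 and 38.7 CPM with Dox, and its log2 fold change of 0.26 did not pass (edgeR adjusted p = 0.265). The intervals of the paralogs overlap, at 0.32 to 0.90 for ATG2A and -0.082 to 0.60 for ATG2B, and their difference was not tested.

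VMP1, a lipid scramblase of the endoplasmic reticulum, and WDR45, which encodes the PI3P-binding protein WIPI4, did not overlap between the conditions and yet did not pass. VMP1 had 162, 157 and 144 CPM without Dox and 119.6, 131 and 117 CPM with Dox, a log2 fold change of -0.33 (edgeR quasi-likelihood adjusted p = 0.0531) and WDR45 had 15.7, 14.9 and 15.2 CPM against 23.7, 20.3 and 20.1 CPM, a log2 fold change of 0.48 (edgeR adjusted p = 0.0666). ATG9A, the scramblase of the vesicles that seed the membrane, had -0.12, and the PI3P-binding genes WIPI1 and WIPI2 had 0.053 and -0.11. WDR45 and ATG9A each have an exon of another gene on the same strand in their last 1 kb.

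The 10 conjugation genes encode the enzymes that process, activate and attach ATG8 proteins. Of these 9 were tested and 0 passed with edgeR's quasi-likelihood test, and DESeq2 also called 0. With edgeR, 2 of the 9 had an unadjusted p under 0.05, a smaller share than the 4507 of all 12233 genes tested. ATG5, which with ATG12 and ATG16L1 forms the unit that directs ATG8 proteins to the membrane, had 34.0, 32.3 and 40.7 CPM without Dox and 41.1, 39.5 and 44.3 CPM with Dox. The groups overlapped and the log2 fold change was 0.22 (95% interval -0.10 to 0.54). ATG7, the activating enzyme of both conjugation systems, was low, with 7.05, 4.34 and 5.76 CPM without Dox and 6.09, 5.57 and 8.14 CPM with Dox, and its log2 fold change was 0.23 (95% interval -0.40 to 0.86). VGLL4, on the opposite strand, has an exon in the last 1 kb of ATG7.

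The log2 fold changes of the 9 tested conjugation genes ran from -0.37 to 0.23. ATG10 and ATG3, the conjugating enzymes of the ATG12 and the ATG8 system, had the lowest values, -0.37 and -0.32 (edgeR quasi-likelihood adjusted p = 0.119 and 0.120). The exon of RPS23 in the last 1 kb of ATG10 lies on the opposite strand. ATG12 had 0.22 and ATG16L1 0.19, and the ATG4 proteases, which trim ATG8 proteins, had 0.047 (ATG4A), 0.13 (ATG4B) and 0.020 (ATG4C). ATG4D, the other ATG4 protease, had 1, 2 and 3 counts without Dox and 3, 4 and 3 counts with Dox, and it was not tested. Replicates 1 and 2 without Dox were below the limit of 3 counts used for detection, and the other libraries were at it or just above. KRI1, on the opposite strand, has an exon in the last 1 kb of ATG4D.

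The ATG8 family held 3 of the 7 rises. GABARAPL1, on chromosome 12 from 10212458 to 10223128, had 33.7, 34.1 and 27.9 CPM without Dox and 53.1, 46.2 and 68.2 CPM with Dox. That was the largest log2 fold change among the tested members, 0.83 (SE 0.17, edgeR quasi-likelihood adjusted p = 0.00146), or 1.78-fold. MAP1LC3B encodes LC3B, the ATG8 protein most used as an autophagosome marker, and lies on chromosome 16 from 87383953 to 87404779. It had 84.6, 79.7 and 87.8 CPM without Dox and 125, 119 and 138 CPM with Dox. Replicates were close to each other in both conditions, and the log2 fold change was 0.60 (SE 0.12, edgeR adjusted p = 0.00180), or 1.51-fold. MAP1LC3B2, a near-identical copy from which reads could be split, had a log2 fold change of 0.52 at 2.98 CPM without Dox and did not pass (edgeR adjusted p = 0.299).

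MAP1LC3A, on chromosome 20 from 34546854 to 34560345, encodes LC3A. It had 37.9, 33.8 and 22.0 CPM without Dox and 39.8, 44.8 and 70.0 CPM with Dox. The highest library without Dox was just below the lowest with Dox, and replicate 3 was at the far end in both conditions. Its log2 fold change was 0.76 (SE 0.22, edgeR quasi-likelihood adjusted p = 0.0170). Without replicate 3 with Dox it was 0.46 and without replicate 3 without Dox 0.54, and neither value passed (edgeR adjusted p = 0.111 and 0.0929).

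The other ATG8 genes did not pass. GABARAP had 524, 547 and 512 CPM without Dox and 521, 464 and 546 CPM with Dox, and its log2 fold change of -0.047 had a 95% interval of -0.30 to 0.21. An exon of another gene on the same strand lies in the last 1 kb of GABARAP. GABARAPL2 had 279, 234 and 382 CPM without Dox and 289, 253 and 308 CPM with Dox, with -0.077 and an interval of -0.41 to 0.25. Neither interval reached those of GABARAPL1 (0.47 to 1.18) and MAP1LC3B (0.34 to 0.86); the differences between members were not themselves tested. Summed over the 5 genes, the ATG8 family had 959, 929 and 1031 CPM without Dox and 1028, 926 and 1130 CPM with Dox, which overlap.

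**Figure D2:**
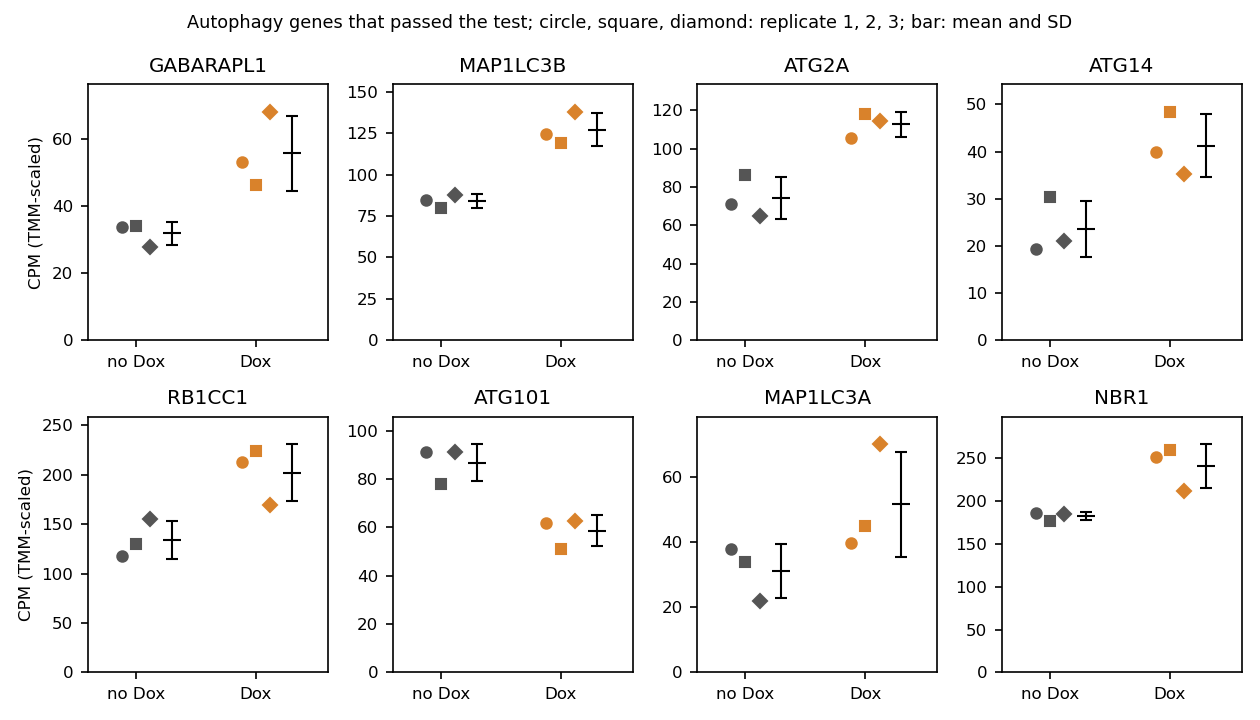
CPM after TMM normalization (vertical axes, each from 0) of the 8 autophagy genes that passed an adjusted p of 0.05, in 3 libraries without Dox (grey) and 3 with Dox (orange); circles, squares and diamonds are replicates 1, 2 and 3 and bars give the mean and SD. The conditions do not overlap for any of the 8 genes; GABARAPL1 went from 31.9 ± 3.46 to 55.8 ± 11.2 CPM and ATG101 from 86.7 ± 7.68 to 58.6 ± 6.41 CPM.

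Of 5 cargo receptors, 1 rose and 4 did not pass. NBR1, on chromosome 17 from 43170481 to 43211689, encodes a receptor for ubiquitinated cargo. It had 186, 177 and 185 CPM without Dox and 252, 259 and 211 CPM with Dox, with no overlap. The log2 fold change was 0.40 (SE 0.12, edgeR quasi-likelihood adjusted p = 0.0251). This call was lost in 5 of the 6 fits that each left out a library, with an adjusted p of up to 0.105 (without replicate 1 with Dox, same test), and held only without replicate 3 with Dox.

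SQSTM1 encodes p62, the receptor that gathers ubiquitinated proteins and is itself degraded by autophagy. It had 288, 325 and 224 CPM without Dox and 294, 302 and 259 CPM with Dox. The libraries with Dox lay within the range of those without, and the log2 fold change was 0.032 (95% interval -0.27 to 0.33, edgeR quasi-likelihood adjusted p = 0.897). MRNIP, on the opposite strand, has an exon in the last 1 kb of SQSTM1. OPTN, the optineurin gene, had 29.5, 38.1 and 29.2 CPM without Dox and 27.6, 24.2 and 16.7 CPM with Dox. It did not overlap, and the log2 fold change of -0.51 did not pass (95% interval -0.93 to -0.092, edgeR adjusted p = 0.0689). Without replicate 3 with Dox it was -0.30 (edgeR adjusted p = 0.277), and without replicate 1 with Dox it passed at -0.68 (edgeR adjusted p = 0.0426).

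TAX1BP1, a receptor for protein aggregates, had 449, 481 and 502 CPM without Dox and 587, 735 and 515 CPM with Dox. Its log2 fold change was 0.36 (edgeR quasi-likelihood adjusted p = 0.0686), and it passed without replicate 3 with Dox (0.47, edgeR adjusted p = 0.0161), while without replicate 2 with Dox it was 0.20 (edgeR adjusted p = 0.276). CALCOCO2, which encodes the bacterial and mitochondrial receptor NDP52, had a log2 fold change of 0.14.

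No gene of the MiT/TFE family passed. The quasi-likelihood test of edgeR called 0 of 3 with 0 at an unadjusted p under 0.05, against 4507 of all 12233 genes tested. DESeq2 also called 0. The edgeR exact test and limma on the counts each called 0, with 1 of 3 at an unadjusted p under 0.05. TFEB had 7.84, 6.20 and 7.86 CPM without Dox and 10.9, 11.7 and 9.46 CPM with Dox. These did not overlap, but counts were few, from 20 to 72 a library, and the log2 fold change of 0.52 had a 95% interval of -0.0017 to 1.04 (edgeR quasi-likelihood adjusted p = 0.137). TFE3 had 17.2, 19.2 and 11.2 CPM without Dox and 18.5, 19.5 and 25.7 CPM with Dox, and overlapped, with 0.47 (95% interval -0.0077 to 0.94, edgeR adjusted p = 0.142). MITF had 0.14. The MiT/TFE proteins are controlled mainly by phosphorylation and entry into the nucleus, which counts of mRNA do not measure. The 2 fusion genes also did not pass, STX17, the SNARE of the finished autophagosome, with 0.23, and EPG5, a tether to the lysosome, with -0.026.

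**Figure D3:**
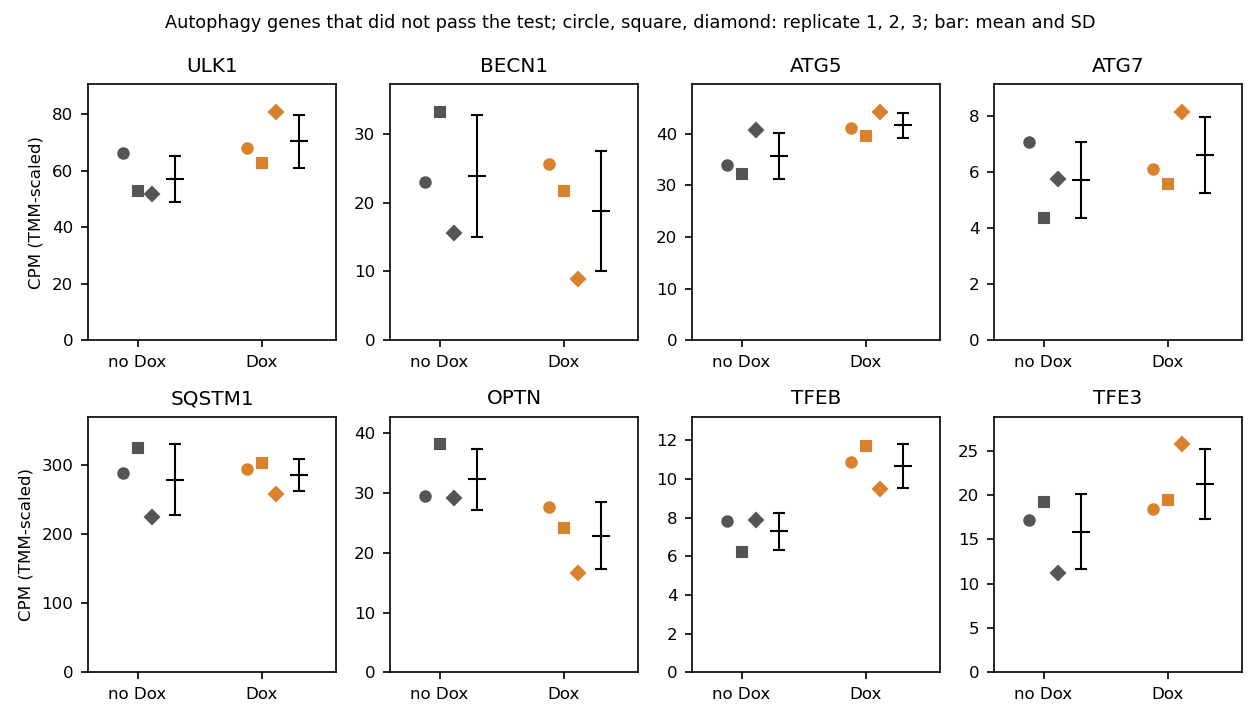
CPM after TMM normalization (vertical axes, each from 0) of 8 well-known autophagy genes that did not pass an adjusted p of 0.05, drawn as for the genes that passed, with 3 libraries per condition. BECN1 spans 15.5 to 33.2 CPM without Dox and 8.93 to 25.7 CPM with Dox, and SQSTM1 has nearly the same mean in both, 279 ± 51.2 and 285 ± 23.1 CPM.

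A further list of 41 genes of the pathway, which are not among the 42, held 37 that passed the filter. By edgeR's quasi-likelihood test 7 rose and 0 fell, or 18.9%, against the 25.5% of all genes given above. By direction, 18.9% rose, against 11.9% of all genes, and 0 fell, against 13.7%. This list was chosen with earlier results of these data known, so the shares are a description and were not tested. Those that rose included 4 of 13 genes for tethering and fusion: VPS11 (log2 fold change 0.48), VPS39 (0.66) and VPS41 (0.36), subunits of the HOPS complex that tethers autophagosomes to lysosomes, and PLEKHM1 (0.86), an adaptor that binds HOPS and ATG8 proteins. The other HOPS subunits on the list, VPS16 (0.094), VPS18 (-0.19) and VPS33A (-0.23), did not pass. For VPS18, every library with Dox was below every library without it. NCOA4, the receptor for ferritin, had 178, 177 and 192 CPM without Dox and 258, 252 and 237 CPM with Dox, a log2 fold change of 0.45 (edgeR quasi-likelihood adjusted p = 0.00917). MTMR3, a PI3P phosphatase, had 0.62 and the PI3P-binding gene ZFYVE1 had 0.54. The number called depended on the libraries used: it was 0 of 38 tested without replicate 1 without Dox (6 at an unadjusted p under 0.05 by edgeR's test, and 1 called by DESeq2), 3 without replicate 2 without Dox or replicate 1 with Dox, and 4 without replicate 3 without Dox or replicate 2 with Dox. Calls over all genes were also fewer when a library was left out, at 2181 to 3112 against 3125.

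Of 15 genes for AMPK and mTORC1, which act on the ULK1 complex, edgeR's quasi-likelihood test called 0, with 4 at an unadjusted p under 0.05, and DESeq2 also called 0. The 4 were a smaller share than the 4507 of all 12233 genes tested that had such a p. By log2 fold change these 4 were MTOR at -0.30 and PRKAA1, a catalytic subunit of AMPK, at -0.33 (edgeR quasi-likelihood adjusted p = 0.0878 and 0.0919), and TSC1 and DEPTOR, a pair of inhibitors of mTORC1, at 0.36 and 0.72 (edgeR adjusted p = 0.108 and 0.113). These counts do not measure the phosphorylation by which both kinases act.

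Across 16 other settings, 5 of the 8 calls among the members were kept in each: GABARAPL1, MAP1LC3B, ATG2A, ATG14 and ATG101. The adjusted p of GABARAPL1 was at most 0.0108 and that of MAP1LC3B at most 0.0148, while those of ATG14, ATG101 and ATG2A reached 0.0387, 0.0305 and 0.0263 (each the largest over the settings, in fits by edgeR's quasi-likelihood test that left out a library). RB1CC1, MAP1LC3A and NBR1 lost their calls in at least 1 setting, and 5 members that did not pass, VMP1, WDR45, TAX1BP1, OPTN and ULK1, passed in at least 1. A further fit, by DESeq2 without replicate 1 without Dox and chosen after the data were seen, called 5 members, and there ATG14 did not pass (0.68, DESeq2 adjusted p = 0.0521), nor did RB1CC1 or NBR1.

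**Figure D4:**
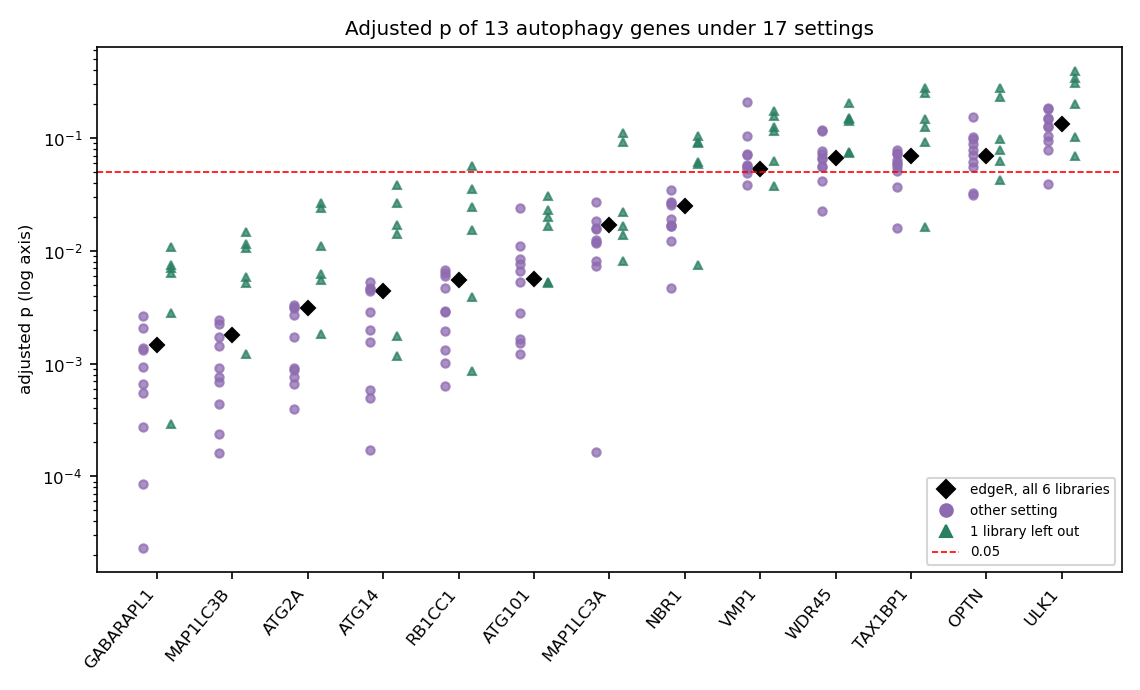
Adjusted p (vertical log axis) of 13 autophagy genes, the 8 that passed and the 5 that passed only under another setting: black diamonds, edgeR's quasi-likelihood test on all 6 libraries; purple circles, the 10 other settings of normalization, filter, test, values or replicate block; green triangles, the 6 fits that each left out a library. The 5 genes with all points under the dashed line at 0.05 are GABARAPL1, MAP1LC3B, ATG2A, ATG14 and ATG101.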

How the data were processed

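Total RNA of 6 libraries was prepared with a QuantSeq 3ʹ mRNA kit, the REV kit in the paper and the FWD kit in the labels, and sequenced as 100 bp single-end reads. Per the labels and the paper, the authors used CASAVA 1.8.2, FastQC, STAR on hg38, HTSeq and edgeR; the annotation and the strand setting are not given in the sources used here. The authors deposited raw counts per gene symbol, used here, and for each library a signal of normalized values (method not stated), used only as an alternative on a log2(value + 1) scale with limma. Rows that name no gene were left out; ambiguous reads were 3.05% to 3.37% of those listed.

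Counts were tested with edgeR 4.0.16 (filterByExpr, TMM, quasi-likelihood test, Benjamini-Hochberg over 12233 genes, threshold 0.05) in R 4.3.3; standard errors are the log2 fold change over the root of F. DESeq2 1.42.0 and limma 3.58.1 served as alternatives, and the tests were checked on simulated counts. Sequences are from RefSeq and loci from GENCODE 44 on hg38. By these loci, 3 members (WDR45, GABARAP and ATG9A) have an exon of another gene on the same strand in their last 1 kb. An exon on the opposite strand lies there for 9 members: ATG101, BECN1, ATG14, RUBCN, WIPI1, ATG4D, ATG7, ATG10 and SQSTM1. The members and lists were chosen with earlier results of these data known. Each of the 42 members was described; values per library were given for those called and for fixed core genes (ULK1, BECN1, ATG5, ATG7, MAP1LC3B, GABARAPL1, SQSTM1, OPTN, TFEB, TFE3), and those of other members were added after they were seen. From the further list, genes with an adjusted p under 0.05 were named, and the HOPS subunits that did not pass were added after they were seen. A limit of 3 counts was 0.394 to 0.930 CPM; it covers counting error only, as reads carry no molecular identifiers. A planned comparison of ATG8 proteins was not run here.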

Additional observations from a re-analysis of the deposited data

How the results depend on the processing

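Across 16 other settings, the ABHD5 log2 fold change (0.81 to 1.06), the count of all genes called (2181 to 3537), the members called (6 to 11) and higher (5 to 10) and the members' median log2 fold change (0.048 to 0.26) kept their direction and stayed within 1.5 times or within the spread between libraries. That spread, used for the median alone, was 0.15 and so larger than the median of 0.13. A median of 0 would also have stayed within it. A DESeq2 fit without replicate 1 without Dox, chosen after the data were seen, called 1880 genes, 5 members (4 higher) and 1 further autophagy gene, with ATG14, RB1CC1 and NBR1 lost. Members lower numbered 1, but 2 without a filter (OPTN joined), 2 with the edgeR exact test (VMP1 joined) and 3 with the replicate block (VMP1 and OPTN joined); the cause was not tested. Across the 6 fits that each left out a library, the members lower were 1 to 2 and the further autophagy genes called were 0 to 6. Under library totals alone, the median of all genes moved from 0.02 to 0.14 and that of the members from 0.13 to 0.26, and 65.7% of calls over all genes were higher, against 46.4%. Under the 16, 0 called members changed sign, and 13 members that did not pass did so in at least 1 setting. Replicate numbers paired the libraries only in part. Same-numbered deviations correlated with r of -0.0096, 0.23 and 0.086, and those of unlike numbers with r of -0.17 to 0.10. Of the 6 libraries, 2 correlated best with their own number, both of replicate 2. The block gave 10 members called and 3537 genes. Depth limits genes with few counts, such as ATG7, TFEB and ATG4D.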

Other observations

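PINK1, ATG9B and MAP1LC3C, from the further list of autophagy genes, were too low to be tested. PINK1, the kinase that marks damaged mitochondria for autophagy, had 5, 4 and 5 counts without Dox and 8, 16 and 14 counts with Dox, or 1.31, 1.24 and 0.873 CPM against 1.74, 4.45 and 1.84 CPM. The conditions did not overlap, and no test was made at this depth. ATG9B, the paralog of ATG9A, had 8, 4 and 7 counts without Dox and 3, 14 and 29 with Dox. MAP1LC3C had 1 count in replicate 3 without Dox and 0 counts in the other 5 libraries.

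Sums of CPM by role overlapped between the conditions for the class III PI3K complex, the genes for lipid transfer and PI3P effectors, conjugation, the ATG8 family, the cargo receptors and fusion. They did not overlap for the ULK1 kinase complex, at 334 to 365 CPM without Dox and 373 to 411 CPM with Dox, nor for the MiT/TFE factors, at 32.8 to 45.5 CPM and 45.9 to 56.0 CPM. For the MiT/TFE factors, the highest sum without Dox and the lowest with Dox were thus nearly equal. Within the ULK1 kinase complex, the mean of RB1CC1 went from 134 to 202 CPM, while that of ATG101 went from 86.7 to 58.6 CPM. The sum therefore does not describe the complex as a whole. Of all single genes tested, 39.5% did not overlap. The sums were not tested.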
